A study of Macaca mulatta with 12 samples.

Results

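The liver profile was set against the 2 profiles of the small intestine, which are 3 of 12 small RNA sequencing profiles of 8 tissues of the rhesus macaque (*Macaca mulatta*). The 3 profiles were chosen by their tissue labels, liver (1 profile) and small intestine (profiles 1 and 2). All samples were labelled Wild-type, with an age of 36 months and no treatment, and came from 2 animals. The labels do not say which animal gave which profile. The source of the spread between the small intestine profiles, such as technical causes or a difference between animals, therefore cannot be told. Liver had no replicate, and the comparison is therefore a description of these 3 libraries.

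A microRNA (miRNA) is cut from a hairpin, the pre-miRNA, as a short mature strand from its 5’ arm (5p) or its 3’ arm (3p). The strand guides a silencing complex to messenger RNAs that pair with its seed, bases 2 to 8 from its 5’ end. Liver and intestinal epithelium both develop from the endoderm and are known for miR-192, a target of the hepatocyte nuclear factors, whereas miR-122 is the classical miRNA of hepatocytes. miR-192 is transcribed together with one copy of miR-194, and its close relative miR-215 with the other copy.

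The mature sequences on which the results turn are given first, as named in the study's table of pre-miRNAs, with the seed in capitals. The first group holds the miRNAs known from hepatocytes and from endoderm epithelium, and its members miR-192-5p and miR-215-5p share their seed.
mml-miR-122a-5p: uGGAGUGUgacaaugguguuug
mml-miR-885-5p: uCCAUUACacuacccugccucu
mml-miR-192-5p: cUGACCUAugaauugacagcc
mml-miR-215-5p: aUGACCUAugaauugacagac
mml-miR-194-5p: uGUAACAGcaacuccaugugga
mml-miR-802-5p: cAGUAACAaagauucauccuugu
From position 1 at the 5’ end, miR-215-5p differs from miR-192-5p by C1A and C20A, so that the letters of the seed cannot separate them and reads are told apart only by these positions. The second group holds miRNAs of smooth muscle, epithelium and the Hox clusters that were lower in liver or abundant in both organs, and its members miR-10a-5p and miR-10b-5p share their seed.
mml-miR-143-3p: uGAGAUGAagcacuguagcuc
mml-miR-200c-3p: aAUACUGCcggguaaugaugga
mml-miR-182-5p: uUUGGCAAugguagaacucaca
mml-miR-31-5p: gGCAAGAUgcuggcauagcug
mml-miR-10a-5p: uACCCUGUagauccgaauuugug
mml-miR-10b-5p: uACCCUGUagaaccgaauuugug
The third group holds miRNAs that were higher in liver. The last of them comes from the imprinted DLK1-DIO3 region.
mml-miR-148a-3p: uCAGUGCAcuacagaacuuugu
mml-miR-22-3p: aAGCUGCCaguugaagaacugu
mml-miR-486-5p: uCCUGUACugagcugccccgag
mml-miR-144-3p: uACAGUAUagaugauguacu
mml-miR-409-3p: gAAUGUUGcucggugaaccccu

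The liver profile held 24793024 valid reads, and the small intestine profiles 24438680 and 23710183. Reads were assigned to a mature miRNA when they matched its pre-miRNA exactly with both ends within 2 nucleotides of the annotated ends. Of the valid reads, 35.9% were assigned in liver, the lowest share of the 12 profiles, against 64.3% and 63.5% in small intestine 1 and 2. Liver also held the most unique sequences (825750 against 278383 and 285593) and the most reads of 30 or more nucleotides (4.3% against 0.482% and 0.399%). The part of these differences in the results was not tested. Levels are given in reads per 10000000 valid reads (RPTM), so that 3 reads correspond to 1.21 RPTM in liver.

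Of the 1219 mature sequences searched, 460 had reads in liver, 484 in small intestine 1 and 458 in small intestine 2. Compared were the 371 miRNAs whose levels over the 12 profiles averaged 5 RPTM or more with a standard deviation of 1 RPTM or more. A miRNA was called higher in liver when its log2(RPTM + 1) was at least 2, a 4-fold difference, above the higher small intestine profile, and lower when it was at least 2 below the lower one. Since the filter uses the same levels, a miRNA found in only 1 of the organs, such as both strands of miR-122a or miR-802-5p, passed it through that organ and had to be called. By this rule 54 miRNAs (14.6%) were higher in liver, 41 (11.1%) were lower and 276 were neither. These shares are the background for the counts of called members in the lists below. The 2 small intestine profiles themselves differed at least 4-fold for 9 miRNAs (2.43%), and the other tissues with 2 profiles for 6 (large intestine), 11 (kidney) and 15 (muscle). Liver and small intestine 1 differed that much for 112 miRNAs, and liver and small intestine 2 for 113.

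The split depended on the scale. The median difference of the 371 miRNAs, liver minus the mean of the small intestine profiles, was 0.57 on the log2(RPTM + 1) scale. With TMM factors, which take most miRNAs as equal between libraries, the median was -0.024, and 32 miRNAs were higher and 52 lower. Per 10000000 assigned reads it was 1.39, with 93 higher and 31 lower. Under all of these scales, 32 miRNAs stayed higher and 28 stayed lower. A list or miRNA is said to keep its call when the call held on each of these scales. A test by edgeR across all 12 profiles, which assumes that the lone liver library varies as the tissues with 2 profiles do, gave 47 miRNAs (12.7%) higher and 65 (17.5%) lower at an adjusted p under 0.05. It included 44 of the 54 miRNAs called higher by the fold and all 41 called lower.

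**Figure D1:**
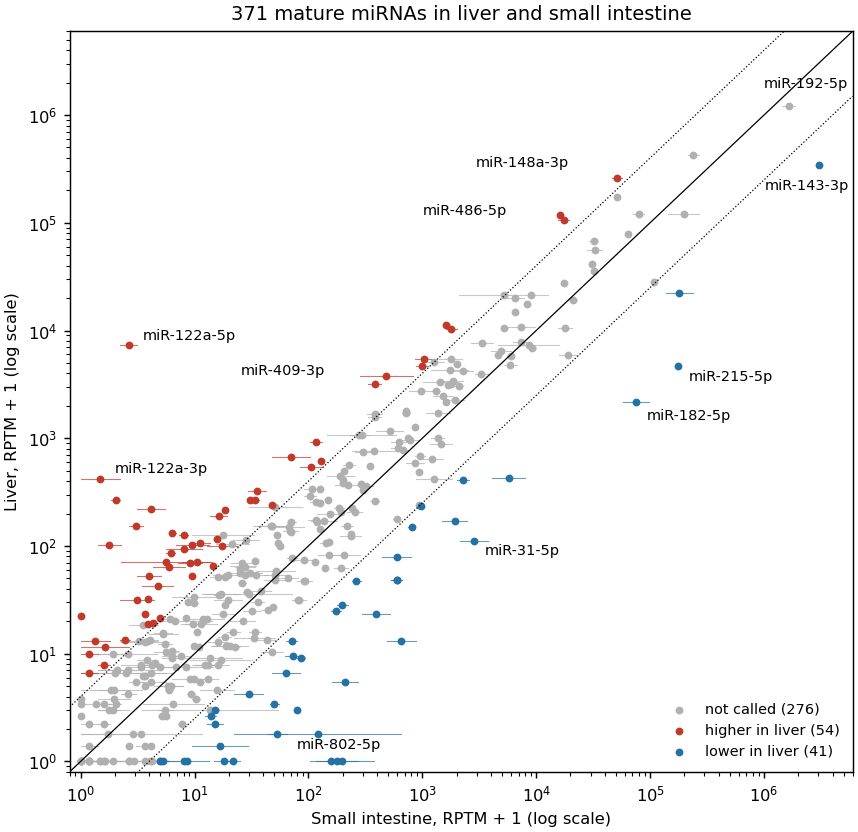
Levels of the 371 miRNAs in liver (y axis) against the small intestine (x axis), both as RPTM + 1 on log scales. Points are at the geometric mean of the 2 small intestine profiles and horizontal lines join these profiles, the solid line marks equal levels and the dotted lines 4-fold differences. miR-122a-5p stands farthest above the dotted lines, and miR-802-5p lies at 0 reads in liver.

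Both organs were dominated by few miRNAs. The 10 most abundant miRNAs held 82.3% of the assigned reads in liver, 91.9% in small intestine 1 and 91.6% in small intestine 2, and 6 were among the first 10 in both organs. These were miR-192-5p, let-7f-5p, miR-143-3p, miR-10a-5p, let-7a-5p and miR-21-5p. miR-148a-3p, miR-27b-3p, miR-486-5p and miR-22-3p were among the first 10 only in the liver list, and miR-10b-5p, miR-215-5p, miR-375-3p and miR-182-5p only in the small intestine list. Of the 50 most abundant, 43 were shared. Of 56 miRNAs with at least 1000 RPTM in each of the 3 profiles, 47 were not called in either direction.

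The hepatocyte list had the highest median difference of the lists. All 4 of its mature miRNAs passed the filter and all 4 were higher in liver, with a median log2 difference of 7.58 against 0.57 for all miRNAs, and each kept its call. They come from 2 pre-miRNAs. Both strands of miR-122a passed the filter through liver and had to be called, so that the count of calls is no test of the list. miR-122a-5p, which promotes lipid synthesis and the hepatocyte state, had 18149 reads in liver and 3 and 5 in small intestine 1 and 2, which corresponds to 7320.2 RPTM in liver against 1.23 and 2.11 RPTM in small intestine 1 and 2. Relative to the pooled small intestine reads this was 4406-fold (95% interval 2235 to 10206), where the interval covers counting error only.

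The 9 profiles of the other tissues held at most 4.37 RPTM of miR-122a-5p, in lung, so that the small intestine values did not stand above the other tissues. Its other strand, miR-122a-3p, showed the same order, with 419 RPTM in liver against 1.23 and 0 RPTM in small intestine 1 and 2. In spite of this contrast miR-122a-5p was only the 32nd most abundant miRNA in this liver library, with 0.204% of the assigned reads. Its level did not depend on the exact-match rule alone, because 25643 liver reads of any length contained its bases 3 to 18.

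miR-885 was higher in liver than in the small intestine and was also found in muscle and neural tissue. miR-885-5p was found at 264 RPTM in liver against 1.23 and 0.844 RPTM in small intestine 1 and 2, which is 254-fold (95% interval 108 to 785) on pooled reads. It was also found at 145 and 98.5 RPTM in muscle, 189.9 RPTM in spinal cord and 197 RPTM in occipital lobe. miR-885-3p had 21.4 RPTM in liver and no read in either small intestine profile, at least 17.4-fold and 16.9-fold higher in liver than in small intestine 1 and 2 when 3 reads in a library are taken as the limit that a count of 0 allows, whereas occipital lobe held 39.1 RPTM.

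The endoderm epithelium list (miR-192, miR-194, miR-215 and miR-802) was lower in liver or within the 4-fold limit. Of its 7 mature miRNAs 6 passed the filter, 3 were lower in liver and 0 higher, and the median log2 difference was -3.47. No member lay near this median, because 3 were at -5.23 or below and 3 at -1.70 or above. The 3 called were miR-802-5p and both strands of miR-215. Summed over the list, liver held 1214343 RPTM against 2064673 and 1645451 RPTM in small intestine 1 and 2. miR-192-5p, which acts on epithelial proliferation and differentiation, was the most abundant miRNA in liver and ranked second to miR-143-3p in both small intestine profiles, with 1203647 RPTM in liver against 1873843 and 1445511 RPTM in small intestine 1 and 2. The small intestine values were 1.56- and 1.2-fold the liver value, within the 4-fold limit. It took 33.6% of the assigned reads in liver against 29.1% and 22.8% in small intestine 1 and 2, so that the order is turned when levels are taken per assigned read.

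Across the 12 profiles miR-192-5p fell into levels that followed the organs. Large intestine held 978784 and 443632 RPTM, and kidney 253994 and 277153 RPTM. Lung, muscle, spinal cord and occipital lobe held between 4096 and 28864 RPTM. Liver lay between the small intestine and large intestine 1. The 3p strand of miR-192 was rare in both organs (9.28, 9.41 and 5.06 RPTM) and did not pass the filter.

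miR-215-5p was one of the strongest differences against liver. It was found at 4653 RPTM in liver against 166876 and 183652 RPTM in small intestine 1 and 2, so that the small intestine held 35.9- and 39.5-fold the liver level. Of the other profiles, large intestine came next with 18791 and 6963 RPTM. Its rarer strand miR-215-3p had 661 and 273 reads in the small intestine profiles and none in liver, at least 224-fold and 95.2-fold lower in liver than in small intestine 1 and 2 by the same limit of 3 reads in a library. Both kept their call.

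The liver reads assigned to miR-215-5p were of another kind than those of the small intestine. Only 4.59% of the 11536 liver reads began at the annotated 5’ end (95% Wilson interval 4.23% to 4.99%), against 98.6% and 99.1% in small intestine 1 and 2. This share was also low in kidney 1 and 2 (31% and 14.7%) and in occipital lobe (49.6%). The large intestine, lung, muscle and spinal cord profiles lay between 86.3% and 96%. The most abundant liver form lacked the first base, the position of C1A, and is shown beside a mixed form that has the first base of miR-192-5p and the end of miR-215-5p and was assigned to neither.
form without the first base: ugaccuaugaauugacagac
mixed form: cugaccuaugaauugacagac
The form without the first base had 10738 reads in liver, 5194 in small intestine 1 and 3641 in small intestine 2, and the mixed form 177053, 128048 and 112580. The mixed form stood at 6.71% of the annotated miR-192-5p reads in liver and at 3.1% and 3.61% in the small intestine. In the other tissues this ratio ran from 1.88% (kidney 1) to 6.55% (occipital lobe). Profiles of the same tissue were far apart, with 6.14% and 2.07% in large intestine 1 and 2 and 5.17% in kidney 2.

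In liver, the form without the first base amounted to 6.06% of the mixed form, and miR-192-5p without its first base to 6.02% of annotated miR-192-5p. In small intestine 1 these ratios were 4.06% and 3.88%, and in small intestine 2 they were 3.23% and 3.16%. The 2 ratios were therefore close to each other within each profile. With only the reads that begin at the annotated 5’ end, a choice made after seeing these reads, miR-215-5p had 530 reads or 214 RPTM in liver, against 164575 and 182011 RPTM in small intestine 1 and 2.

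miR-194-5p, which is cut with the same sequence from both copies, was found at 5880.3 RPTM in liver against 23053 and 15874 RPTM in small intestine 1 and 2. The small intestine values were 3.92- and 2.7-fold the liver value, which missed the call on the RPTM scale and passed it with TMM factors. Its 3’ ends differed between the organs. In liver 84.5% of its reads had the annotated 3’ end and 11.1% were longer, whereas 58.1% and 61% were longer in small intestine 1 and 2. Reads that run past the annotated end can name the copy, as shown here with the added bases in capitals.
mir-194-1, beside mir-215: uguaacagcaacuccauguggaC
mir-194-2, beside mir-192: uguaacagcaacuccauguggaA
The read that follows mir-194-1 was found at 107 RPTM in liver, 8691 RPTM in small intestine 1 and 6953 RPTM in small intestine 2. The read that follows mir-194-2 was found at 531, 928 and 412 RPTM. The share of the first among both was 16.8% in liver (95% Wilson interval 15% to 18.7%), 90.3% in small intestine 1 and 94.4% in small intestine 2. A single added base can also be non-templated. With 2 added bases, which are less open to this, 34 of 40 liver reads and 9199 of 9200 and 5471 of 5472 small intestine reads followed mir-194-1. In kidney 1 and 2 such reads also followed mir-194-1 (11 of 11 and 6 of 6). There the share of mir-194-1 with 1 added base was only 7.25% and 17.9%. Reads with 2 added bases therefore cannot check the share. In liver the shares by 1 and by 2 added bases were unlike (16.8% and 85%). The longer reads thus do not divide the liver miR-194-5p between the copies. The 3p strand of mir-194-2 differed little, with 153 RPTM in liver against 244 and 191 RPTM in small intestine 1 and 2.

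**Figure D2:**
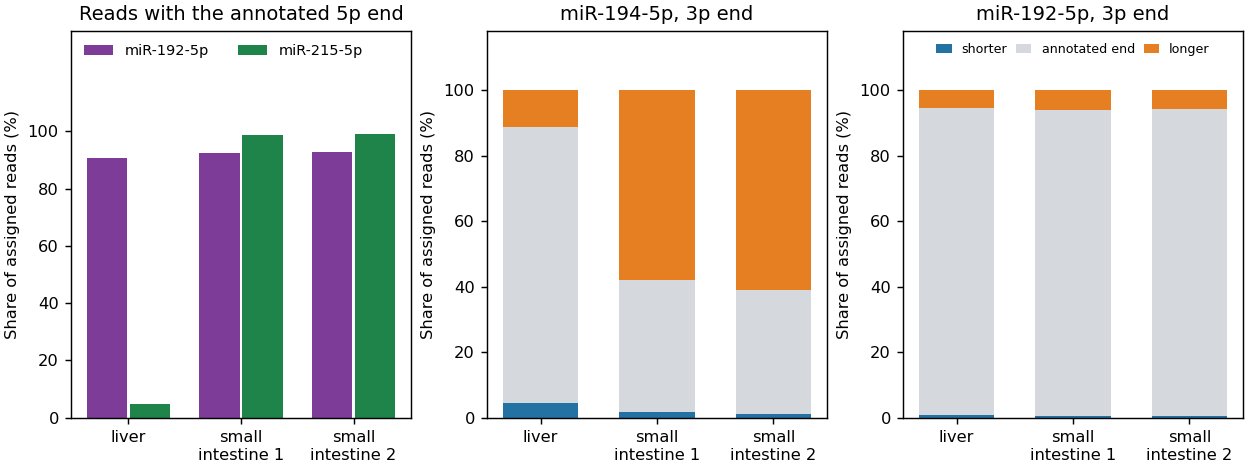
Share of assigned reads (y axes, percent) with the annotated 5’ end for miR-192-5p and miR-215-5p (left), and with a shorter, the annotated or a longer 3’ end for miR-194-5p (middle) and miR-192-5p (right), in liver and small intestine 1 and 2 (x axes). Each bar is 1 profile. miR-215-5p had the annotated 5’ end in 4.59% of its liver reads and miR-194-5p was mostly longer in the small intestine, while the 3’ ends of miR-192-5p were alike in the 3 profiles.

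miR-802-5p, known from liver as well as intestine as a miRNA under the control of hepatocyte nuclear factor 1, had no read in this liver library. It had 920 reads in small intestine 1 and 244 in small intestine 2, which corresponds to 376 and 103 RPTM, so that liver was at least 311-fold lower than small intestine 1 and at least 85-fold lower than small intestine 2. No liver read of any length contained its bases 3 to 18. The large intestine profiles held 0 and 0.425 RPTM, and the highest of the other tissues was spinal cord with 1.25 RPTM. Of its reads, 99.7% in small intestine 1 and all 244 in small intestine 2 began 1 base before the annotated 5’ end.
most abundant read of miR-802-5p: ucaguaacaaagauucauccuug
This read had 873 and 228 copies in small intestine 1 and 2, and its bases 2 to 8 are shifted by 1 against the annotated seed.

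**Figure D3:**
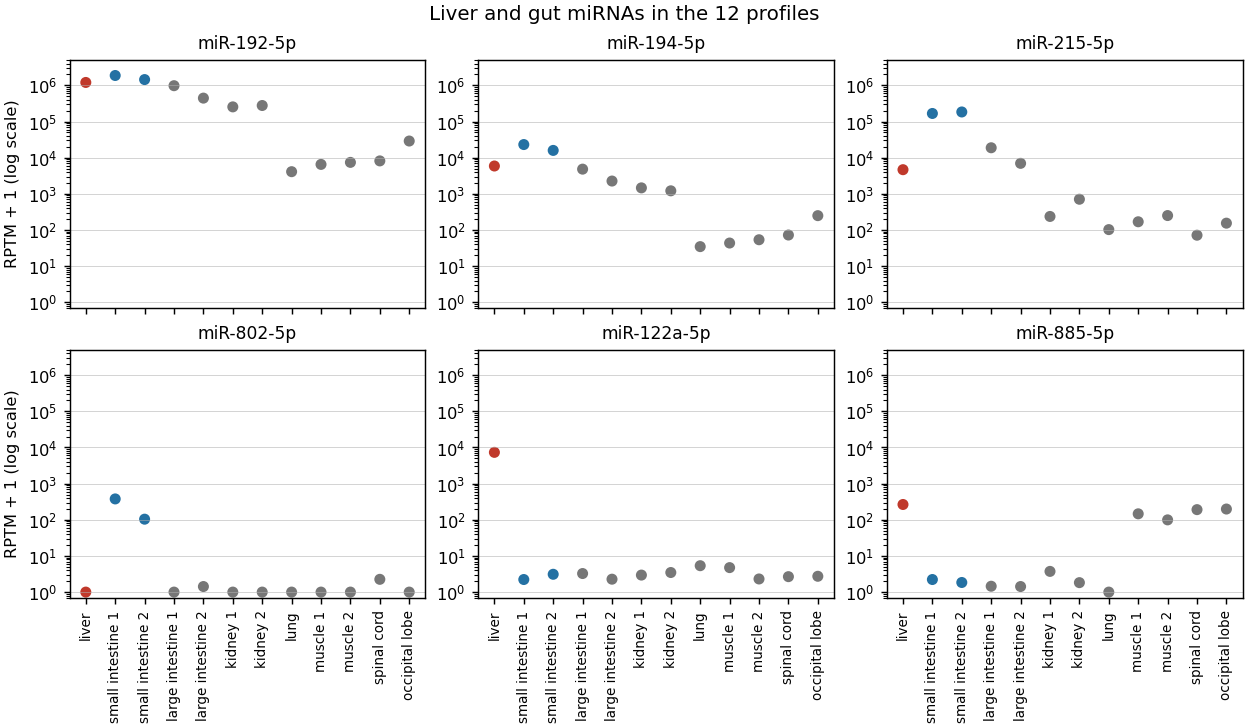
Levels of 6 miRNAs of the hepatocyte and endoderm epithelium lists in the 12 profiles (x axis), as RPTM + 1 on a log scale (y axis). Each point is 1 profile, with liver in red, small intestine in blue and the other tissues in grey. miR-122a-5p was high in liver alone, miR-802-5p in the small intestine alone, and miR-192-5p in liver, intestine and kidney.

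Epithelial miRNAs of the miR-200 family, which keep epithelial cells from a mesenchymal state by acting on ZEB transcription factors, were lower in liver. Of 8 mature miRNAs 6 passed the filter and all 6 were called lower, with a median log2 difference of -3.63. 4 of them kept the call on all scales. miR-141-3p, the most abundant, was found at 423 RPTM in liver against 7969.7 and 4117 RPTM in small intestine 1 and 2, and miR-429-3p at 168 RPTM in liver against 2479 and 1495 RPTM in small intestine 1 and 2. miR-200c-3p, from the same hairpin cluster as miR-141, had no liver read and 428 and 335 reads in the small intestine, at least 145-fold and 117-fold lower in liver. miR-200a-3p, miR-200a-5p and miR-141-5p were the others. Summed over the list, liver held 683 RPTM, below intestine, kidney and lung but above muscle, spinal cord and occipital lobe, of which the highest held 181 RPTM. In bulk tissue, fewer cells of a type and less RNA per cell cannot be told apart.

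The miR-183 cluster, known from sensory cells and epithelia, was the list with the lowest median. Its 3 members past the filter, of 4, were all lower in liver, with a median log2 difference of -5.10, and all kept the call. miR-182-5p was found at 2187 RPTM in liver against 97609.6 and 57522 RPTM in small intestine 1 and 2, so that the small intestine held 44.6- and 26.3-fold the liver level. miR-183-5p had 12.1 RPTM in liver against 875 and 488 RPTM in small intestine 1 and 2, and miR-96-5p had 8.07 RPTM in liver against 79 and 91.5 RPTM in small intestine 1 and 2. The liver sum of 2207 RPTM was near that of occipital lobe (1917 RPTM) and below the other 10 profiles, which held at least 14129 RPTM.

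Other miRNAs known from epithelium and from enteroendocrine cells also had lower levels in liver. miR-31-5p, known from intestinal epithelium and its stem cells, was found at 111 RPTM in liver against 3781 and 2140.01 RPTM in small intestine 1 and 2, which is 34.2- and 19.4-fold higher in the small intestine. miR-203-3p, a miRNA of keratinised and other epithelia, had 22.6 RPTM in liver, 292 RPTM in small intestine 1 and 522 RPTM in small intestine 2. The endocrine list had 2 members past the filter, 1 of them lower, against 11.1% of all miRNAs tested. miR-375-3p, which restrains hormone secretion in islet and enteroendocrine cells, was 3.82- and 3.76-fold higher in the small intestine (28507 RPTM in liver against 108889.7 and 107201 RPTM in small intestine 1 and 2), which missed the call and passed it with TMM factors. miR-7-5p, the called member, had no liver read and 12.3 and 4.64 RPTM in small intestine 1 and 2. With 3 reads as the limit for a count of 0, liver was at least 10.1- and 3.83-fold lower, of which the latter is short of 4-fold. miR-577-5p, which was in no list, was found at 4.44 RPTM in liver against 270.1 and 159 RPTM in small intestine 1 and 2.

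The smooth muscle list held the largest share of the small intestine reads. All 4 mature miRNAs of miR-143 and miR-145, which keep smooth muscle contractile, were lower in liver, with a median log2 difference of -2.81. miR-143-3p was the most abundant miRNA in both small intestine profiles and the third in liver, with 343634 RPTM in liver against 2962642 and 3167003 RPTM in small intestine 1 and 2, a difference of 8.62- and 9.22-fold. miR-145-5p, from the same transcript, had 149 RPTM in liver against 749.6 and 861 RPTM in small intestine 1 and 2, and miR-145-3p had 411 RPTM in liver against 2018 and 2568 RPTM in small intestine 1 and 2. Both strands of miR-145 were within the 4-fold limit per assigned read, while both strands of miR-143 kept the call. The large intestine sums (2347119 and 3570598 RPTM) were close to those of the small intestine, and the liver sum of 344200.4 RPTM was near that of kidney 2 (322998 RPTM).

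Among the striated muscle miRNAs, 7 of 11 passed the filter, with a median of -2.78. Of the 7, 4 were lower in liver, against 11.1% of all miRNAs tested. miR-133a-3p was found at 46.8 RPTM in liver against 666 and 528 RPTM in small intestine 1 and 2, and miR-133c-3p had the same counts because the 2 names share their reads, so that they are 1 measurement. miR-1-3p had 0.403, 28.2 and 8.44 RPTM, and miR-133b-3p had 1.21, 11.9 and 16.9 RPTM. The muscle profiles summed to 266716 and 302175 RPTM over the list, against 1381 and 1083 RPTM in the small intestine.

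The Hox cluster miRNAs, which lie among the genes that pattern the body from head to tail, had a median log2 difference of -2.25. Of the 6 members past the filter 3 were lower in liver, against 11.1% of all miRNAs tested. miR-10b-5p was found at 22211 RPTM in liver against 136781 and 236448 RPTM in small intestine 1 and 2, whereas its relative miR-10a-5p with the same seed had 121447 RPTM in liver against 143916 and 270069 RPTM in small intestine 1 and 2 and was not called. Per assigned read miR-10b-5p was within the limit. miR-196a-5p, from the posterior clusters, had 0.807 RPTM in liver against 21.3 and 654 RPTM in small intestine 1 and 2, and was lower in liver than in both, but the small intestine profiles were farther apart than for any other of the 371 miRNAs. miR-196b-5p followed the same order with 2.02, 2.46 and 53.6 RPTM and was not called, as small intestine 1 was close to liver. miR-10b-3p was the third called member, with no liver read and 3.68 and 4.22 RPTM in small intestine 1 and 2. With 3 reads as the limit for a count of 0, liver was at least 3.04- and 3.49-fold lower, which is short of 4-fold. Of the 9 miRNAs that differed at least 4-fold between the small intestine profiles, 5 were higher in small intestine 2, namely miR-196a-5p, miR-196b-5p, miR-100-5p, miR-1271-5p and miR-204-5p.

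miRNAs known from other cells were compared as well, and the cell content of the tissues was not tested. The immune list had 10 mature miRNAs, of which 8 passed, with a median of -0.83. Of these, 1 was lower in liver, which is near the 11.1% of all 371 miRNAs called lower. That member was miR-155-5p, a miRNA of activated lymphocytes and macrophages, at 46.4 RPTM in liver against 239 and 288 RPTM in small intestine 1 and 2, and it was within the limit per assigned read. The most abundant, miR-146b-5p, did not separate the organs (7746 RPTM in liver against 8509 and 6229 RPTM in small intestine 1 and 2), and miR-150-5p of mature lymphocytes was lower at 238 against 871 and 1019.8 RPTM without passing the call. The neural list had 5 members past the filter with a median of -0.95 and 1 lower, against 11.1% of all miRNAs tested. This was miR-9-5p, at 233 RPTM in liver against 939 and 988 RPTM in small intestine 1 and 2, which was within the limit per assigned read. The list sums were far below those of occipital lobe (397519.8 RPTM), with 246 RPTM in liver. The pancreatic acinar list had no member past the filter and summed to 0, 0.818 and 0.844 RPTM in liver and small intestine 1 and 2.

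The erythroid list was higher in liver for 3 of its 5 members, with a median log2 difference of 2.89. miR-486-5p, which is abundant in red blood cells and muscle, was found at 119313 RPTM in liver against 15116 and 17119 RPTM in small intestine 1 and 2, a difference of 7.89- and 6.97-fold. miR-144-3p had 131 RPTM in liver against 4.91 and 5.9 RPTM in small intestine 1 and 2, and miR-451-5p, which is cut from its hairpin by Argonaute 2 in place of Dicer, had 663 RPTM in liver against 47.1 and 102 RPTM in small intestine 1 and 2. These 3 kept their call. The 3p strand of miR-486 showed the opposite order. The form listed under mml-miR-486 had 8.47 RPTM in liver against 61.8 and 86 RPTM and was called lower, though not per assigned read, and the form listed under mml-mir-486 had 30.3 RPTM against 71.2 and 93.6 RPTM and was not called. Summed over the list, liver held 120145 RPTM, below muscle, lung, spinal cord and occipital lobe. The part of blood left in the tissue was not tested. Of the vessel and stroma lists, the single endothelial miRNA miR-126-3p was higher without passing the call (1679.5 RPTM in liver against 325 and 444 RPTM in small intestine 1 and 2), and none of 5 stromal miRNAs was called (median 0.76), with miR-199a-3p, the most abundant, at 5872 RPTM in liver against 4748 and 4410.3 RPTM in small intestine 1 and 2. Per assigned read miR-126-3p was called higher.

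miR-148a was the most abundant miRNA called higher in liver. Its 3p strand, which acts on DNA methyltransferases and on cholesterol uptake, was found at 261169.8 RPTM in liver against 45959 and 56884 RPTM in small intestine 1 and 2, a difference of 5.68- and 4.59-fold, and its 5p strand at 4688 RPTM in liver against 1117 and 876 RPTM in small intestine 1 and 2. Liver held more of miR-148a-3p than any other of the 12 profiles, the next being kidney 2 with 73797 RPTM. The seed relatives miR-148b-3p and miR-152-3p were not called (249.7 against 124 and 129 RPTM, and 64.1 against 19.6 and 33.3 RPTM). The list had 6 members, 2 higher and 0 lower, with a median of 1.14, and neither call was kept with TMM factors.

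miR-22-3p, a miRNA of lipid and glucose metabolism in liver, had 105946 RPTM in liver against 19444 and 15692 RPTM in small intestine 1 and 2, a difference of 5.45- and 6.75-fold that was under the limit with TMM factors. In its list, which also held miR-21 and miR-31, 1 of 4 members was higher and 1 lower, and miR-21-5p was alike in both organs (78836 RPTM in liver against 63427 and 63762 RPTM in small intestine 1 and 2). let-7c-5p was the only one of 13 let-7 miRNAs past the filter to be called (11291 RPTM in liver against 1692 and 1521 RPTM in small intestine 1 and 2), while let-7f-5p, the most abundant, was not (425969 RPTM in liver against 268682 and 215241 RPTM in small intestine 1 and 2) and the list median was 0.58. let-7c lies beside miR-99a in the genome, and miR-99a-5p (3797 RPTM in liver against 281 and 828 RPTM in small intestine 1 and 2) and miR-99a-3p (67.8, 6.14 and 10.5 RPTM) were the 2 called of 10 members of the miR-99, miR-100 and miR-125 list (median 0.86). miR-99a was not called with TMM factors, and let-7c-5p was. Of all 371 miRNAs tested 14.6% were called higher, beside 1 of 13 and 2 of 10 in these lists.

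Imprinted miRNAs of the DLK1-DIO3 region, expressed from the maternal chromosome and known from brain and embryo, formed the largest group higher in liver. Of 83 mature miRNAs 45 passed the filter, 21 were higher, against 14.6% of all miRNAs tested, and 0 lower. Above both small intestine profiles lay 44 of the 45, against 58% of all 371. The members lie in 1 region, share 1 liver library, and some are the 2 strands of 1 pre-miRNA. They are therefore not replicates. The median log2 difference was 2.27 against 0.57 for all 371, and it was 1.68 with TMM factors, where 10 kept the call. Abundant members were miR-411-5p (10379.9 RPTM in liver against 2002 and 1605 RPTM in small intestine 1 and 2) and miR-127-3p, which targets the imprinted gene RTL1 (5490.3 RPTM in liver against 855 and 1254 RPTM in small intestine 1 and 2). miR-409-3p followed with 3199.7 RPTM in liver against 437 and 332 RPTM in small intestine 1 and 2, and miR-410-3p with 930.1 RPTM in liver against 131 and 102 RPTM in small intestine 1 and 2. The largest differences were those of miR-369-3p (126 RPTM in liver against 7.77 and 6.33 RPTM in small intestine 1 and 2) and miR-370-3p (84.3 RPTM in liver against 5.73 and 4.64 RPTM in small intestine 1 and 2).

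The other called members were miR-134-5p, miR-136-5p, miR-299-3p, miR-369-5p, miR-376c-3p, miR-377-3p, miR-431-5p, miR-432-5p, miR-433-3p, miR-485-5p, miR-487b-3p, miR-543-3p, miR-654-3p, miR-654-5p and miR-889-3p, with log2 differences between 2.22 (miR-889-3p) and 3.66 (miR-431-5p). miR-431-5p differed at least 4-fold between the small intestine profiles themselves (12.7 and 1.27 RPTM), and its log2 difference to the nearer one was 2.36. Summed over the region, liver held 24826 RPTM and the small intestine 4722 and 4468 RPTM. Spinal cord (106927 RPTM) and occipital lobe (84489 RPTM) were above liver, and the other 7 profiles lay between 5268 and 6880.3 RPTM. The neural list, by comparison, summed to 246 RPTM in liver and 947 and 999.6 RPTM in the small intestine.

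**Figure D4:**
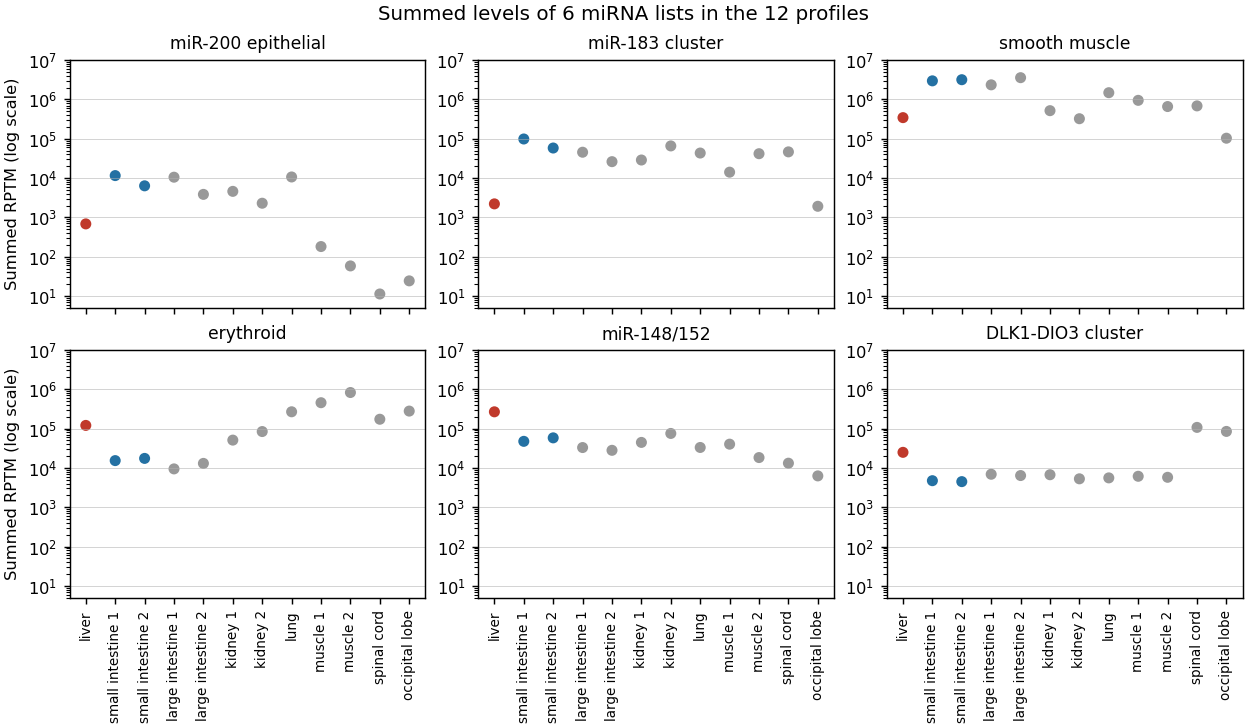
Summed levels of 6 miRNA lists in the 12 profiles (x axis), in RPTM on a log scale (y axis). Each point is 1 profile, with liver in red, small intestine in blue and the other tissues in grey. Liver lies below the intestine for the first 3 lists and above it for the others, and for the DLK1-DIO3 cluster it stands between the neural tissues and the other 9 profiles.

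Several miRNAs in no list were among the 12 largest differences with at least 100 RPTM in liver. miR-211-5p, which lies in an intron of TRPM1, was found at 101.2 RPTM in liver against 0.409 and 1.27 RPTM in small intestine 1 and 2, and both strands of miR-1247 were higher (5p 153, 1.64 and 2.53 RPTM, 3p 221, 4.5 and 2.11 RPTM). Both were higher still in another tissue, where the maximum was 305 RPTM for miR-211-5p and 1268 RPTM for miR-1247-3p. miR-193b-3p, a miRNA of brown fat and muscle differentiation, had 189 RPTM in liver against 18.4 and 12.7 RPTM in small intestine 1 and 2, and miR-3614-5p had 106 RPTM in liver against 12.7 and 8.01 RPTM in small intestine 1 and 2. Among all 54 miRNAs higher in liver, 12 were also above the other 9 profiles, including both strands of miR-122a and of miR-148a, and miR-885-5p. Of the 41 lower in liver, 7 had both small intestine profiles above all other tissues, namely miR-215-5p, miR-215-3p, miR-802-5p, miR-31-5p, miR-143-5p, miR-145-3p and miR-96-5p.

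Families that are expressed in most tissues gave few or no calls. No member was called of miR-30 (median 1.14, 10 of 11 past the filter, miR-30a-5p at 67489.95, 29365 and 34598 RPTM in liver and small intestine 1 and 2), miR-26 (median 1.10, 3 of 7 past the filter, miR-26a-5p at 55428, 37936 and 28119 RPTM in liver and small intestine 1 and 2) and miR-101 (median 0.79, 2 of 3 past the filter, miR-101-3p at 21446, 9123 and 8852 RPTM in liver and small intestine 1 and 2). Their medians stayed above 0 on all scales. The miR-33 miRNAs from introns of the SREBP genes gave no call either (median 1.05, 2 of 3 past the filter, miR-33b-5p at 231, 85.9 and 29.1 RPTM in liver and small intestine 1 and 2). Per assigned read, 3 members of miR-30 and 1 each of miR-26, miR-101 and miR-33 were called higher, and with TMM factors none was. In the miR-29 family (median 0.59, 4 of 7 past the filter, miR-29a-3p at 1000.3, 771 and 715 RPTM in liver and small intestine 1 and 2), miR-29c-5p alone was higher, with 12.1 RPTM in liver against 0.818 and 0 RPTM.

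For the remaining families the sign of the median turned with the scale. This held for let-7, miR-29 and the list of miR-21, miR-22 and miR-31, and for miR-23, miR-27 and miR-24 (median 0.39, 7 of 12 past the filter, miR-27b-3p at 171822, 49792 and 51826 RPTM in liver and small intestine 1 and 2) and miR-378 (median 0.28, 4 of 14 past the filter, miR-378a-3p at 35785, 31796 and 32036 RPTM in liver and small intestine 1 and 2), whose medians fell below 0 with TMM factors. miR-27b-3p was the largest difference of its family and was called higher per assigned read only. The medians of miR-17-92 and its paralogs (median -0.03, 11 of 16 past the filter, miR-92a-3p at 17675, 8391 and 8225 RPTM in liver and small intestine 1 and 2), miR-15, miR-16, miR-195 and miR-497 (median -0.10, 7 of 11 past the filter, miR-16-5p at 3943, 3788 and 2875 RPTM in liver and small intestine 1 and 2) and miR-181 (median -0.26, 6 of 8 past the filter, miR-181a-5p at 41167, 29991 and 31332 RPTM in liver and small intestine 1 and 2) were below 0 and rose above 0 per assigned read. None of these 5 families had a called member on the RPTM scale.

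**Figure D5:**
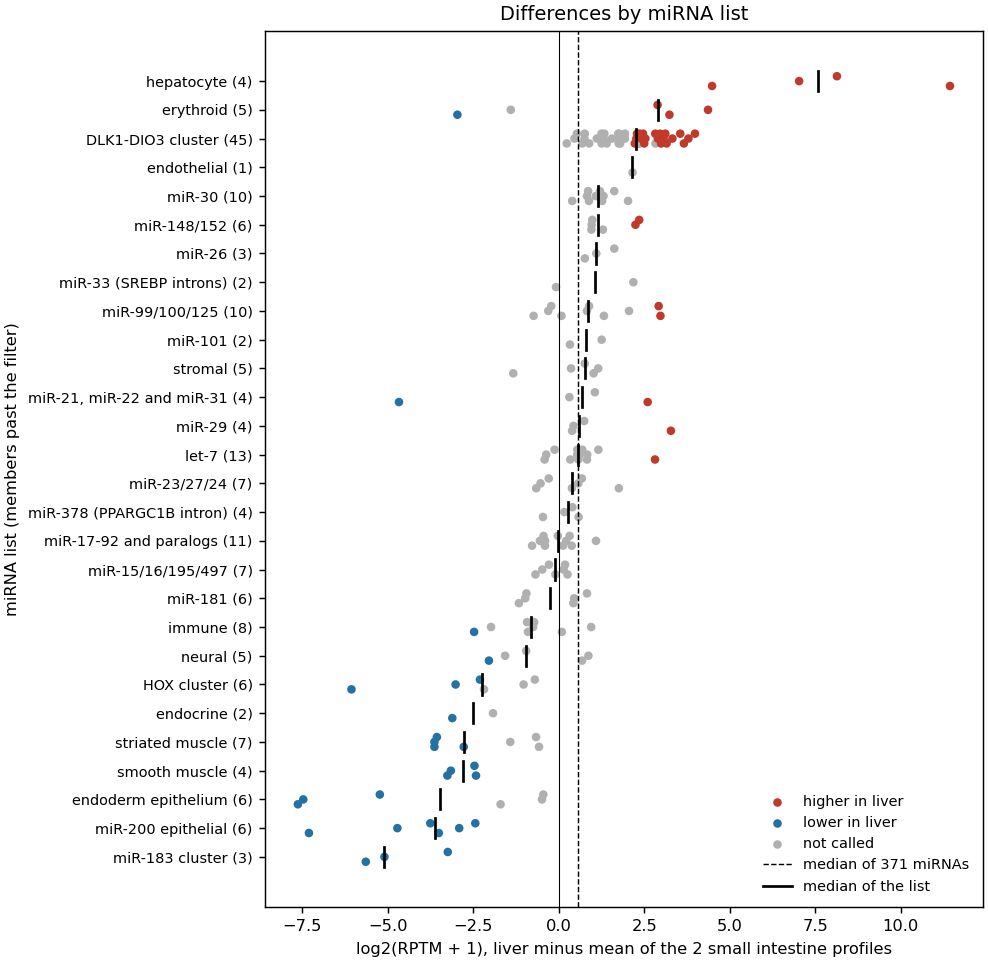
Differences of log2(RPTM + 1), liver minus the mean of the 2 small intestine profiles (x axis), for the members of 28 miRNA lists (y axis, with the number of members past the filter). Points are miRNAs coloured by call, short bars the list medians, and the dashed line the median of all 371 miRNAs (0.57). The hepatocyte list lies highest with a median of 7.58 and the miR-183 cluster lowest with -5.10.

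The choice of arm was similar in the organs for most pre-miRNAs. Of 110 pre-miRNAs with at least 200 reads on both arms together in each profile, 106 had a 5p share in liver within 10 percentage points of the small intestine mean. The clearest of the others was mir-339, where the 5p share was 5.51% in liver, 22.8% in small intestine 1 and 22% in small intestine 2. For mir-1307 it was 25.9% in liver, 49.3% in small intestine 1 and 35.3% in small intestine 2, and the small intestine profiles differed by 14 points themselves. The only change of the leading arm, in mir-30c-2, rests on a 5p strand that it shares with mir-30c-1, and miR-30c-2-3p itself was 1561 RPTM in liver against 335 and 436 RPTM.

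The leading miRNAs more often carried a single non-templated cytidine or guanosine at their 3’ ends in liver. Of 17 leading miRNAs with at least 1000 assigned reads in each of the 3 profiles, 13 had a larger share of reads with such a C in liver than in both small intestine profiles, and 2 a smaller one. For an added G it was 13 above and 0 below both, and for an added base of any kind 12 and 3. The median share with a G was 2.91% in liver, 2.33% in small intestine 1 and 0.491% in small intestine 2. For G the small intestine profiles thus lay farther from each other than liver from small intestine 1. The median share with a C was 16% in liver, 8.75% in small intestine 1 and 12.3% in small intestine 2. For C the small intestine profiles lay about as far from each other as liver from small intestine 2. The 17 miRNAs share 1 liver library and are not replicates. For let-7f-5p the share with a C was 22% in liver against 11% and 12.4% in small intestine 1 and 2, and for miR-22-3p 26% in liver against 15.8% and 23.1%. Added A (3 above and 6 below both) and U (6 above and 9 below) did not follow this order. The source of these bases was not tested. Such reads do not match the pre-miRNA and are left out of the levels above. miR-27b-3p was shortened at its 3’ end in 93.6% of liver reads against 83.3% and 81.4% in small intestine 1 and 2.

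Over all 371 miRNAs, liver was not closest to the small intestine. The Euclidean distance of log2(RPTM + 1) was 43 and 43.4 to small intestine 1 and 2, and 41.8 and 41.1 to the large intestine, 41.9 and 42 to kidney and 43.7 to lung. These values lie close together, and profiles of the same tissue were 14.6 to 17.5 apart. Muscle, occipital lobe and spinal cord were farther from liver, at 51.6 or more.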

How the data were processed

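Total RNA was isolated with TRIzol and small RNA libraries were sequenced on an Illumina HiSeq sequencer. For each profile the authors removed low-quality reads and the 3’ adapter and deposited the unique sequences of 18 nucleotides or longer with their read counts, unnormalized and not pooled. The counts sum to 24793024 valid reads in liver and 24438680 and 23710183 in small intestine 1 and 2, where 1 read equals 0.403, 0.409 and 0.422 RPTM.

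Mature and pre-miRNA sequences were read from the study's supplementary table (832 pre-miRNAs, 1377 mature names, 1219 distinct sequences, after 7 that are absent from their pre-miRNA were left out). The paper reports more pre-miRNAs and mature miRNAs than these. Those outside the 832 pre-miRNAs read were not searched, so that the assigned shares and the miRNAs compared cover only this part. No genome was used, and reads that match several pre-miRNAs with the same mature sequence count once for it. Python 3.11.15, numpy 2.4.6, pandas 2.3.3, scipy 1.17.1 and matplotlib 3.10.9 were used. The RPTM filter of the study and a pseudocount of 1 RPTM were applied. Intervals are at the 95% level, Wilson for shares and exact for ratios of reads, and cover counting error only, because the libraries carry no molecular identifiers to separate PCR copies. The floor for a count of 0 is 3 reads in a library. edgeR 4.0.16 (quasi-likelihood, TMM, Benjamini-Hochberg, limma 3.58.1) and DESeq2 1.42.0 in R 4.3.3 were fitted to the counts of the 12 profiles in 8 tissue groups as alternatives. Assignment and test were tested on simulated data.

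The miRNAs named are the members of the hepatocyte and endoderm epithelium lists, the 10 most abundant in each organ, the 12 largest called differences in each direction with at least 100 RPTM in the higher organ, and of each other list its most abundant and its called members. A miRNA named outside this rule was chosen after its values were seen. The organs, lists and marker miRNAs were chosen with earlier results of these data known. Alternatives were other scales, pseudocounts, filters, assignment rules, fold limits and leaving out 1 small intestine profile.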

Additional observations from a re-analysis of the deposited data

How the results depend on the processing

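With liver in 1 library, no alternative measures the spread between livers. Without either small intestine profile, 66 miRNAs were higher, 46 to 47 lower, and the median log2 difference was 0.42 to 0.64. Per 10000000 assigned reads 93 miRNAs were higher (median 1.39), with TMM sizes 32 (median -0.024) and with DESeq2 size factors 28 (median -0.10), while the lower counts of 31, 52 and 53 stayed within 1.5 times the 41 reported. A pseudocount of 10 left 33 higher and 25 lower (median 0.30), and reads identical to the mature sequence 35 and 25, of 262 miRNAs tested. Without a filter the median was 0.39. A fold of 2 gave 107 higher and 65 lower, and a fold of 8 gave 16 and 21. At an adjusted p under 0.05, the lower count was 65 with edgeR, 74 with edgeR on the 3 profiles and 80 with DESeq2, the last 2 with 366 and 363 adjusted p-values. The higher counts were 47, 58 and 41. Reads with the annotated 5’ end, an alternative chosen after the reads of miR-215-5p were seen, gave 49 higher and 34 lower but leave out miR-802-5p. Of 70 called miRNAs among the 92 followed, 0 changed sign under any alternative that tested them, which differences of at least 4-fold made likely beforehand. The call was lost for 16 with TMM sizes, 19 with DESeq2 size factors, 21 with a pseudocount of 10 and 8 per assigned read. In the same order, 2, 2, 0 and 4 of the 92 gained a call. The cause of these shifts was not tested. No paired analysis was possible because liver has 1 profile without a replicate number. Low counts limit the rest: 30 of the 371 miRNAs had no liver read, where a count of 0 allows up to 1.21 RPTM, and 9 had none in both small intestine profiles.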
